A study of Mus musculus with 9 samples.

Results

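The negative feedback genes of the ERK pathway were followed in RAW-264.7 cells, a murine monocyte/macrophage line, with and without a FoxQ1 transgene. These 10 genes are 6 dual-specificity phosphatases (Dusp1, Dusp2, Dusp4, Dusp5, Dusp6 and Dusp16), 2 Sprouty genes (Spry1 and Spry2) and 2 Spred genes (Spred1 and Spred2), picked by name and matched to the microarray through the Entrez ID in each row name. Of them, 8 were matched to a row among the 16492 gene rows, and Dusp4 and Spred1 were not analysed here. RNA came from 5 RAW-FoxQ1 clones, numbered 7.1 to 7.5 and carrying mouse FoxQ1 in the pEF6/V5-His TOPO vector, and from 4 RAW-vector clones, numbered 4 to 7 and carrying that vector empty. Each clone grew from a single cell and was selected with blasticidin S at 6 µg/ml, with no further treatment named in the sources. Each gave RNA for 1 Affymetrix mouse array. The spread between clones is therefore the error of every comparison. The sources used here do not say whether any clones had a common parent, so p-values measure only the spread between these 9 cultures.

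In the ERK pathway a growth factor receptor activates Ras, which drives the kinases Raf, MEK and ERK in turn. Dual-specificity phosphatases remove the activating phosphates from ERK, p38 or JNK, while Sprouty and Spred proteins restrain the pathway higher up, between the receptor and Raf. Many of these genes are themselves transcribed in response to ERK, so that the pathway induces its own inhibitors. In macrophages the pathway is fed by receptors for growth factors such as M-CSF and by bacterial products such as LPS.

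The values are on the log2 scale and quantile-normalized by the authors, so that a difference of 1 is a doubling of signal. A gene was called where limma gave a Benjamini-Hochberg adjusted p under 0.05 over all gene rows. The arrays of RAW-FoxQ1 clones stood far from those of RAW-vector clones as a whole, with correlations across genes of 0.934 to 0.968 between the groups, against 0.981 to 0.997 within RAW-FoxQ1 and 0.988 to 0.998 within RAW-vector. Foxq1 itself had log2 values of 7.27 to 7.44 in RAW-FoxQ1 clones and 6.94 to 7.01 in RAW-vector clones, a log2 fold change of 0.39 (adjusted p = 4.72e-05 from limma). Its mean ranked at the 47.5 percentile of signal in RAW-FoxQ1 clones and the 35.6 percentile in RAW-vector clones. The RAW-vector level is not shown to be above background, which limits what the size of this fold can show. Of 13 macrophage markers 6 were called lower in RAW-FoxQ1 clones and 2 higher (61.5%, against 40.9% of all genes, 21.4% lower and 19.6% higher). Of the 9895 genes left after a filter on dim genes, 61.1% were called, close to the share of these markers. The median of the macrophage markers lies at the 98.2 percentile of signal in RAW-FoxQ1 clones and the 98.5 percentile in RAW-vector clones. Their mean level was 11.2 to 11.4 in RAW-FoxQ1 clones and 11.5 to 11.8 in RAW-vector clones. The mean levels of 8 fibroblast, 6 epithelial and 8 B and T cell markers lay between 6.55 and 6.86 in RAW-FoxQ1 clones and between 6.59 and 6.95 in RAW-vector clones, below the array median of 7.49. The 27 poly-A spike-in controls averaged 7.92 to 8.38 on RAW-FoxQ1 arrays and 8.41 to 8.71 on RAW-vector arrays, and 26 genes of glycolysis and hypoxia 9.06 to 10.02 on RAW-FoxQ1 arrays and 10.19 to 10.8 on RAW-vector arrays. The 3 control probe sets for 18S RNA averaged 11.33 to 12.76 on RAW-FoxQ1 arrays and 12.42 to 13.57 on RAW-vector arrays (p = 0.0714 in the exact permutation test), and the part of this in the results was not tested.

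The phosphatase genes Dusp6, Dusp1 and Dusp5 rose in RAW-FoxQ1 clones. Dusp16 fell, and Spry1 fell by a small amount. Dusp2, Spry2 and Spred2 did not pass the test. With the mean of the poly-A controls in the fit only the call of Dusp16 was left, and with that of the glycolysis and hypoxia list none was. Dusp5 came down to 0.33 and 0.40 on the log2 scale with these 2 covariates, and Dusp16 to -0.43 with the second. In a clone as a whole, fewer cells with the RNA and less RNA in each cell cannot be told apart. The calls came to 3 of 8 genes higher and 2 of 8 lower, where 19.6% of all genes were called higher, 21.4% lower and 40.9% in either direction. For 5 of the 8 genes the RAW-FoxQ1 and RAW-vector clones did not overlap, as for 36.1% of all genes. The median log2 fold change of the 8 genes was -0.067, against -0.014 over all genes. With so many genes called on these arrays, the count of 5 of 8 says little of the feedback genes as a group, and the sizes and directions of single genes carry the description.

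**Figure D1:**
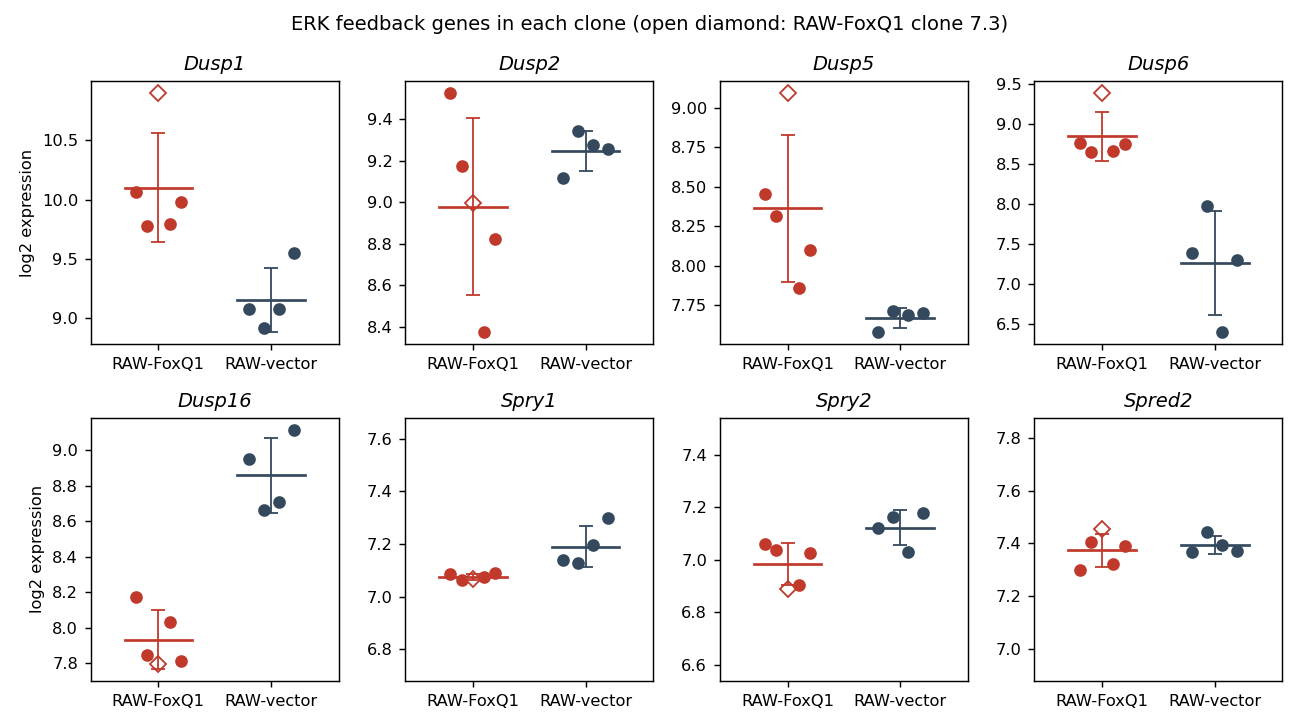
Log2 expression (vertical axes) of the 8 feedback genes, with 1 point for each clone, a line at the group mean and bars of 1 SD, for 5 RAW-FoxQ1 clones (left) and 4 RAW-vector clones (right) in each panel. The groups lie apart for Dusp1, Dusp5, Dusp6, Dusp16 and Spry1, and RAW-FoxQ1 clone 7.3 (open diamond) is the highest for Dusp1, Dusp5 and Dusp6.

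Dusp6, which dephosphorylates ERK in the cytoplasm, changed the most. Its log2 value was 8.77, 8.65, 9.39, 8.66 and 8.76 in RAW-FoxQ1 clones 7.1 to 7.5, against 7.39, 7.97, 6.39 and 7.30 in RAW-vector clones 4 to 7. The lowest RAW-FoxQ1 clone lay 0.68 above the highest RAW-vector clone. The log2 fold change was 1.58 (standard error 0.28, 95% confidence interval 0.95 to 2.22, adjusted p = 0.00145 from limma), which is 3.0-fold, and the two-sided exact permutation test over the 9 clones gave p = 0.00794, the smallest p that 5 clones against 4 allow. Among the RAW-vector clones Dusp6 spread over 1.58, with clone 6 low and clone 5 high, and its SD there of 0.65 ranks at the 99.9 percentile of all genes. In the RAW-FoxQ1 clones the SD was 0.31. Its mean ranked at the 73.9 percentile of array signal in RAW-FoxQ1 clones and at the 45.1 percentile in RAW-vector clones. The RAW-vector mean of 7.27 lies below the array median of 7.49. RAW-vector clone 6 lies below 6.59, the lowest mean level there of the markers of other cell types. The 3.0-fold is thus partly against a level not shown to be above background. The log2 fold change stayed between 1.29 and 1.82 when any 1 clone was left out, with adjusted p-values of 0.000704 to 0.00488 from limma. The 1.29 was without RAW-vector clone 6.

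Dusp1, a nuclear phosphatase that is induced by stress and LPS and acts on p38 and JNK as well as ERK, was also higher. It had log2 values of 10.06, 9.78, 10.90, 9.80 and 9.98 in RAW-FoxQ1 clones 7.1 to 7.5, against 9.08, 8.91, 9.08 and 9.55 in RAW-vector clones 4 to 7. Clone 7.3 stood above the other RAW-FoxQ1 clones and clone 7 above the other RAW-vector clones, with a gap of 0.23 between the groups. The log2 fold change was 0.95 (standard error 0.23, 95% confidence interval 0.44 to 1.46, adjusted p = 0.00785 from limma, and p = 0.00794 in the exact permutation test), or 1.93-fold. Without clone 7.3 it was 0.75 (adjusted p = 0.00156 from limma).

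Dusp5, a nuclear phosphatase that is specific for ERK, had log2 values of 8.45, 8.31, 9.09, 7.86 and 8.10 in RAW-FoxQ1 clones 7.1 to 7.5, against 7.58, 7.71, 7.69 and 7.70 in RAW-vector clones 4 to 7. The RAW-vector clones lay within 0.13 of each other, whereas the RAW-FoxQ1 clones spread over 1.23, again with clone 7.3 at the top. The log2 fold change of 0.69 (standard error 0.21, 95% confidence interval 0.23 to 1.16, adjusted p = 0.0223 from limma, and p = 0.0159 in the exact permutation test) is 1.62-fold. It was 0.51 without clone 7.3 (adjusted p = 0.00604 from limma). The call was lost without RAW-vector clone 4 (0.66, adjusted p = 0.0590 from limma), and the methods' ANOVA gave an adjusted p of 0.0561.

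Dusp2, the third nuclear phosphatase, which is found mainly in blood cells, did not follow. Its log2 values were 9.53, 9.18, 8.99, 8.37 and 8.82 in RAW-FoxQ1 clones 7.1 to 7.5, against 9.12, 9.34, 9.27 and 9.25 in RAW-vector clones 4 to 7. RAW-FoxQ1 clone 7.1 was above every RAW-vector clone and clones 7.3, 7.4 and 7.5 below them all. Its log2 fold change was -0.27 with a 95% confidence interval of -0.70 to 0.16 (adjusted p = 0.313 from limma, and p = 0.27 in the exact permutation test). An interval that wide leaves room for a decrease about as large as the increase of Dusp5.

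The stretch before the start site of Dusp1, Dusp5 and Dusp6, the genes that rose, is shown because each is known to be induced through its promoter. The bases are the 250 before the RefSeq start in build GRCm38.p6, read 5′ to 3′ on the strand of the gene, at chr17:26508473-26508722 (minus strand) for Dusp1, chr19:53528895-53529144 (plus strand) for Dusp5 and chr10:99262981-99263230 (plus strand) for Dusp6, with capitals for the motif matches named next.
Dusp1: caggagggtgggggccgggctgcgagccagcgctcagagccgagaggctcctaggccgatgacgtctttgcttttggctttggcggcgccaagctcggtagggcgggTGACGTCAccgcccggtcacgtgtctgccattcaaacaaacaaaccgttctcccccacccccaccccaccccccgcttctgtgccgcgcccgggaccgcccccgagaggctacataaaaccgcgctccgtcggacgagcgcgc
Dusp5: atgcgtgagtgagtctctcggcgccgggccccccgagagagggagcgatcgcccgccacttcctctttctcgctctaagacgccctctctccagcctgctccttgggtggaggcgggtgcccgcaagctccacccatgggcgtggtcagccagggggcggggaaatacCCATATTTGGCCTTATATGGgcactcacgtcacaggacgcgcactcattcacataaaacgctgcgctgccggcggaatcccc
Dusp6: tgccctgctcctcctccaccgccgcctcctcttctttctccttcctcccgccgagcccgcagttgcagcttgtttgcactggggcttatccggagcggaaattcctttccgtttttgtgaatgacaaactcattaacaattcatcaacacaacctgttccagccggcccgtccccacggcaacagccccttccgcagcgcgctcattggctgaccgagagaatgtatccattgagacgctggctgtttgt
The capitals in Dusp1 are a cAMP response element (CRE, TGACGTCA), the site of CREB and ATF proteins, at -143 to -136 from the start. Those in Dusp5 are 2 adjoining CArG boxes, the site of the serum response factor SRF, at -82 to -73 and -72 to -63. Windows of 300 bases, with 50 more after the start, were searched on both strands in the 8 genes and in all 32851 promoters of the table. A CRE stood in 1.79% of all promoters and a CArG box in 1.63%. The AP-1 site (TGANTCA, in 7.81% of all promoters), the ETS site (CCGGAAGT, in 3.89%) and the forkhead site (TGTTTAC, in 3.65%) were matched in 0 of the 8 windows, Dusp6 among them. These motifs do not overlap each other in the 8 windows, and a match is a description of the sequence only. The CRE, ETS and forkhead sites were searched only as the exact letters given, so variant forms of these sites were not counted. Srf, the gene of the CArG-binding factor, was among the genes called higher, with a log2 fold change of 0.32 (adjusted p = 0.00358 from limma). Of all genes 19.6% were called higher, and the part of Srf in the Dusp5 values was not tested.

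Dusp16, which favours JNK and p38 over ERK and is known to curb JNK in macrophages, went the other way. It had log2 values of 8.17, 7.84, 7.80, 8.03 and 7.81 in RAW-FoxQ1 clones 7.1 to 7.5, against 8.95, 8.66, 8.71 and 9.11 in RAW-vector clones 4 to 7. Every RAW-FoxQ1 clone lay at least 0.49 below every RAW-vector clone. Its log2 fold change of -0.93 (standard error 0.11, 95% confidence interval -1.18 to -0.68, adjusted p = 1.26e-04 from limma, and p = 0.00794 in the exact permutation test) is a 1.9-fold decrease. It was the smallest adjusted p of the 8 genes, and the value ran from -0.99 to -0.84 when any 1 clone was left out.

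The inhibitors that act above Raf moved little in signal. Their means lie below the array median of 7.49 in both groups, where signal over background limits what can be seen. Spry1, which binds adaptor proteins at activated receptors, had log2 values of 7.06 to 7.09 in the 5 RAW-FoxQ1 clones and 7.13 to 7.30 in the 4 RAW-vector clones. The groups were apart by only 0.037, and the RAW-FoxQ1 SD of 0.012 ranks at the 0.428 percentile of all genes. The decrease in Spry1 was a log2 fold change of -0.11 (95% confidence interval -0.20 to -0.027, adjusted p = 0.0406 from limma), or 1.08-fold lower. This call was lost without RAW-FoxQ1 clone 7.1, 7.2, 7.3, 7.4 or 7.5 and without RAW-vector clone 6 or 7, with adjusted p-values of up to 0.0895 from limma.

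Spry2, the best known Sprouty, had log2 values of 6.89 to 7.06 in RAW-FoxQ1 clones and 7.03 to 7.18 in RAW-vector clones, with an overlap of 0.033. Its log2 fold change of -0.14 (95% confidence interval -0.25 to -0.026) just missed the threshold (adjusted p = 0.0505 from limma, and p = 0.0476 in the exact permutation test). It passed without RAW-FoxQ1 clone 7.1 (adjusted p = 0.0391) or RAW-vector clone 6 (adjusted p = 0.0253), both from limma. Spred2, which blocks the activation of Raf by Ras, had log2 values of 7.30 to 7.45 in RAW-FoxQ1 clones and 7.37 to 7.44 in RAW-vector clones. The groups overlapped almost wholly, and the log2 fold change of -0.020 had a 95% confidence interval of -0.11 to 0.068 (adjusted p = 0.734 from limma). For these 3 genes the intervals leave out a change in signal of the size seen for Dusp1, Dusp6 or Dusp16 on these arrays. Their signal is not shown to be above background, which limits what this says of the RNA.

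**Figure D2:**
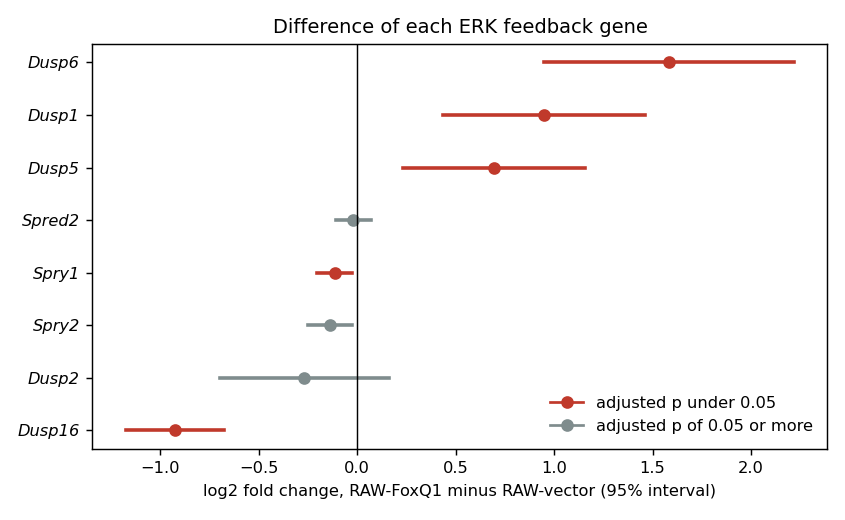
Log2 fold change (horizontal axis, RAW-FoxQ1 minus RAW-vector) of each feedback gene, with its 95% confidence interval from limma as a bar. Dusp6 at 1.58, Dusp1 at 0.95 and Dusp5 at 0.69 lie to the right of 0 and Dusp16 at -0.93 to the left, while the Sprouty genes and Spred2 lie within 0.14 of 0.

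In order of the log2 fold change, the genes were Dusp6, Dusp1, Dusp5, Spred2, Spry1, Spry2, Dusp2 and Dusp16. The intervals of Dusp6, Dusp1 and Dusp5 overlapped each other, as did those of Spred2, Spry1, Spry2 and Dusp2. That of Dusp16 lay below the intervals of all others but Dusp2, with which it overlapped only at its upper end.

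Dusp1, Dusp2, Dusp5 and Dusp6 varied more between RAW-FoxQ1 clones than most genes on the array. Their SD over the 5 RAW-FoxQ1 clones ranked at the 98.8 percentile of all genes for Dusp5, the 98.7 for Dusp1, the 98.4 for Dusp2 and the 96.5 for Dusp6. Among RAW-vector clones the SD of Dusp6 and Dusp1 ranked as high, at the 99.9 and 96.3 percentiles, and that of Dusp2 and Dusp5 lower, at the 63.6 and 37.5 percentiles. Clone 7.3 lay 2.13 above the RAW-vector mean for Dusp6, 1.74 for Dusp1 and 1.42 for Dusp5, the highest of the 5 RAW-FoxQ1 clones each time, and the other 4 clones lay 1.39 to 1.51, 0.62 to 0.91 and 0.19 to 0.78 above it. For Dusp16 clone 7.3 was the lowest, 1.06 below the RAW-vector mean, and clone 7.5 was 1.05 below it. Clone 7.3 was the farthest from the RAW-vector mean for other genes too, such as the macrophage marker Adgre1 (-3.94) and the hypoxia-induced Ndrg1 (-4.81), and the part of this in its Dusp values was not tested. The extent of the change thus differed between clones, while its direction for Dusp1, Dusp5, Dusp6 and Dusp16 was the same in 5 of 5. Dusp2 lay 0.28 above the RAW-vector mean in clone 7.1 and below it in the other RAW-FoxQ1 clones.

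**Figure D3:**
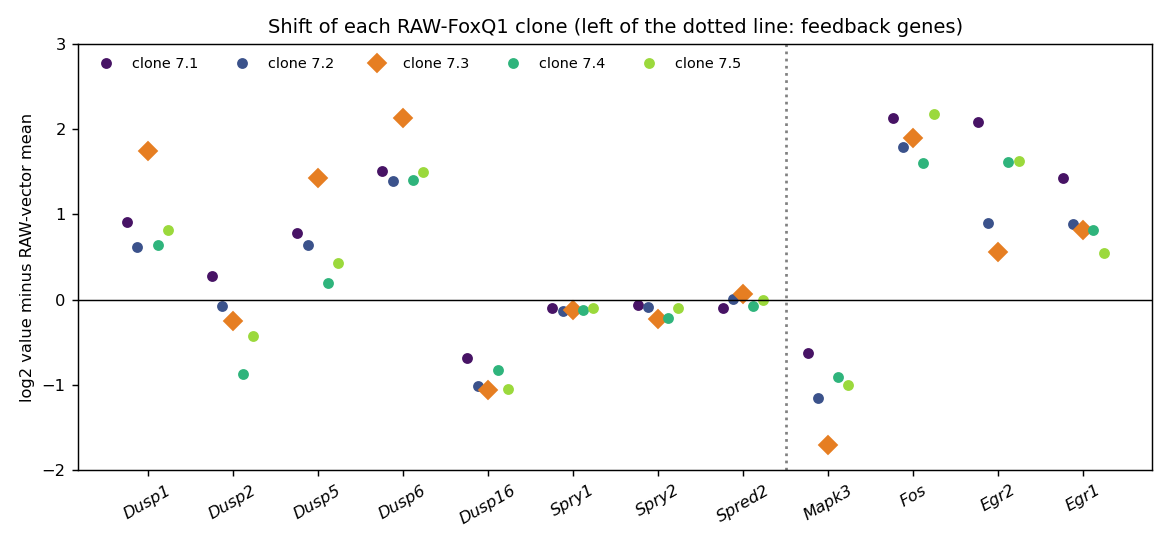
Difference of each RAW-FoxQ1 clone from the mean of the 4 RAW-vector clones (vertical axis, log2 scale) for the 8 feedback genes and, to the right of the dotted line, for the kinase gene Mapk3 and the immediate early genes Fos, Egr2 and Egr1. Clone 7.3 (diamonds) is the highest for Dusp1, Dusp5 and Dusp6, and the lowest for Mapk3 and Egr2.

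Mapk3, which encodes the kinase ERK1, fell while the phosphatase genes Dusp6, Dusp1 and Dusp5 rose. It had log2 values of 10.52, 10.00, 9.45, 10.24 and 10.15 in RAW-FoxQ1 clones 7.1 to 7.5, against 11.14, 11.19, 11.18 and 11.11 in RAW-vector clones 4 to 7. The RAW-vector clones lay close together and above every RAW-FoxQ1 clone, of which 7.3 was the lowest. The log2 fold change was -1.08 (standard error 0.18, adjusted p = 8.34e-04 from limma). Rras, a Ras-related GTPase, fell by 1.56 on the log2 scale. In the list of 22 measured genes of the ERK cascade, 9 were called higher and 7 lower (72.7%, against 40.9% of all genes). Their median log2 fold change was 0.15. The list is bright, with a median at the 85.8 percentile of signal in RAW-FoxQ1 clones and the 85.7 percentile in RAW-vector clones. Of the genes left after the filter on dim genes 61.1% were called, so 40.9% is a low standard for this list. The largest increases were those of the 14-3-3 protein gene Ywhab at 0.95, the phosphatase subunit Ppp1ca at 0.73 and Pea15a, whose protein holds ERK in the cytoplasm, at 0.73.

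Transcripts known to be induced by ERK went in both directions. Of 28 on this list 7 were called higher and 5 lower (42.9%, against 40.9% of all genes), 16 were not called, and the median log2 fold change was 0.0069. Fos, Egr2 and Egr1 had the largest increases. Fos had log2 values of 12.86, 12.53, 12.62, 12.33 and 12.91 in RAW-FoxQ1 clones 7.1 to 7.5, against 9.81, 11.38, 11.62 and 10.12 in RAW-vector clones 4 to 7. Like Dusp6 it varied among RAW-vector clones, but clone 6, the lowest for Dusp6, was the highest for Fos. Egr2 rose by 1.36 and Egr1 by 0.90 on the log2 scale (adjusted p = 0.00320 and 8.07e-04 from limma), and clone 7.1 was the highest for these 2 genes. Clone 7.3, the highest for Dusp6, Dusp1 and Dusp5, was the lowest of the RAW-FoxQ1 clones for Egr2 and the third of 5 for Fos. The RAW-vector means of Egr2 (6.95) and Egr1 (6.62) lie at the level of the markers of other cell types, so these folds are not against a level shown to be above background. Those that fell most were the RNA-decay factor Zfp36l1 at -1.72, Ier3 at -0.93 and the survival gene Mcl1 at -0.80.

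Other brakes on Ras and ERK went in both directions. Of 22 measured genes on this list 8 were called higher and 6 lower, 63.6% in all, against 40.9% of all genes. Of the genes left after the filter on dim genes 61.1% were called, close to the share of this list. The adaptor Dok2 rose by 0.92 on the log2 scale, and the genes Rasa2 and Rasa1, which encode Ras GTPase-activating proteins, by 0.59 and 0.51. Rasa4, of the same family, fell by 1.39, and the adaptors Dok1 and Dok3 by 0.92 and 0.60. Among 17 adaptors and exchange factors that activate Ras, 1 was called higher (Vav1, 0.33) and 7 lower (47.1%, against 40.9% of all genes), led by Rasgrp3 at -0.58, Plcg2 at -0.46 and Gab2 at -0.34. Of 19 kinases and transcription factors downstream of ERK 5 were called higher and 5 lower (52.6%, against that same 40.9%). The 47.1% and the 52.6% both lie above 40.9% but below 61.1%.

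None of the other listed dual-specificity phosphatases was called higher. Of 22 measured, 0 were called higher and 6 lower by limma (27.3%, against 40.9% of all genes), 0 were higher at an unadjusted p under 0.05, and the one-way ANOVA also called 0 higher and 6 lower. The median of the list lies at the 43.8 percentile of signal in RAW-FoxQ1 clones and the 46.0 percentile in RAW-vector clones. Signal over background thus limits what its share of calls can show. The largest decreases were those of Dusp11, which acts on RNA rather than on MAP kinases, at -1.19, Dusp22 at -0.82 and Dusp7, the close cytoplasmic relative of Dusp6, at -0.45 (standard error 0.036, adjusted p = 1.07e-05 from limma). Dusp7 had log2 values of 7.57 to 7.69 in RAW-FoxQ1 clones and 8.05 to 8.14 in RAW-vector clones. Dusp6 and Dusp7 thus went in opposite directions, as did Dusp6 and Dusp16.

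**Figure D4:**
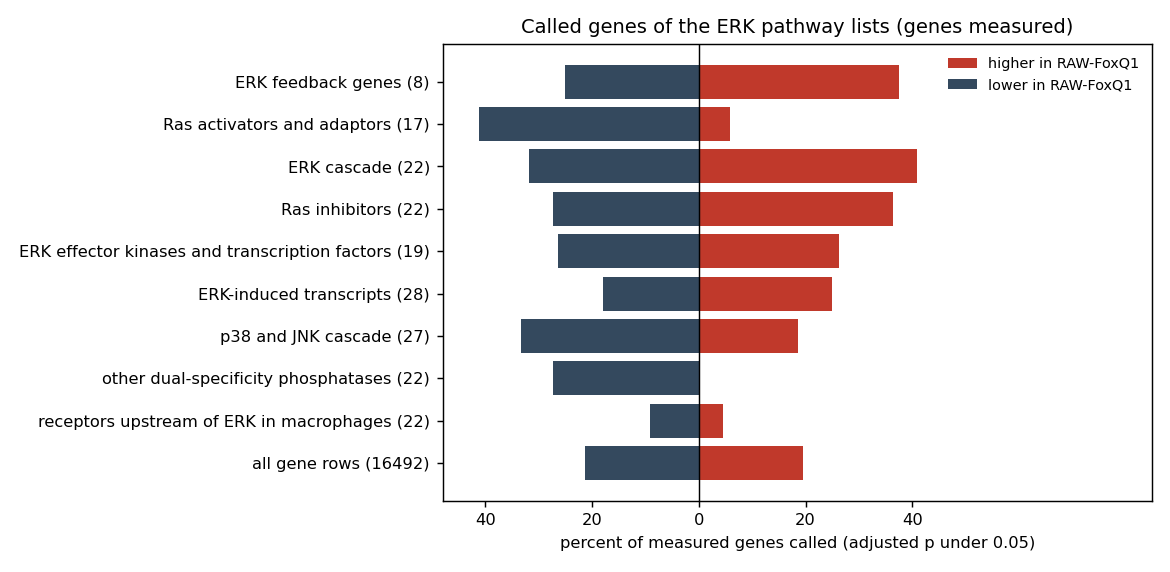
Share of measured genes called higher (to the right of 0) and lower (to the left) in RAW-FoxQ1 clones, as a percent (horizontal axis), for the 8 feedback genes, 8 further lists of the ERK and MAP kinase pathways and all 16492 gene rows; the number of genes measured stands in brackets. The other dual-specificity phosphatases have 0 genes on the right, and over all genes the shares are 19.6% higher and 21.4% lower.

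The calls were also set against the poly-A controls and the glycolysis and hypoxia genes, which are 2 of several measures that differed between the groups. With a term for the poly-A controls (their mean on each array) the log2 fold changes were 1.92 for Dusp6, 0.90 for Dusp1, 0.33 for Dusp5, -0.063 for Spry1 and -0.89 for Dusp16, and of these only Dusp16 was called (limma). With the mean of the glycolysis and hypoxia genes they were 1.51, 0.70, 0.40, -0.073 and -0.43 in that order, with none called. At an unadjusted p under 0.05 Dusp6 and Dusp16 passed with each covariate. These covariates follow the group closely (r = -0.86 and -0.87), which widens the error of the difference. For Dusp16 with the glycolysis and hypoxia genes the standard error was 0.12, against 0.11 without a covariate. There it was mainly the difference that became smaller, from -0.93 to -0.43.

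**Figure D5:**
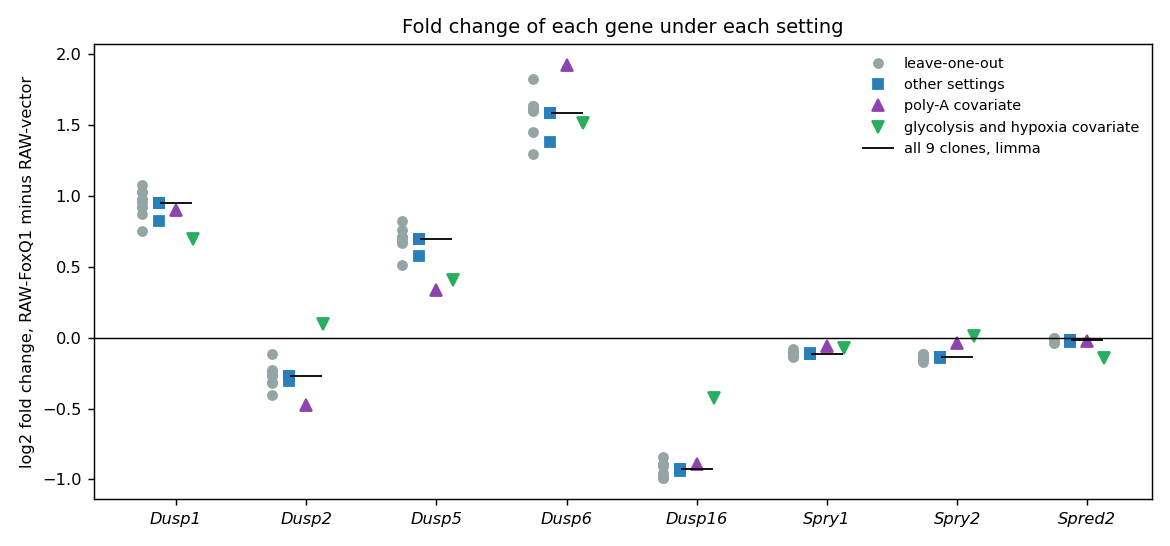
Log2 fold change of each feedback gene (vertical axis, RAW-FoxQ1 minus RAW-vector) with all 9 clones (black line), with each clone left out (circles), under other tests, filters and scalings (squares) and with each covariate (triangles). Dusp6 stays between 1.29 and 1.92, whereas Dusp5 comes down to 0.33 with the poly-A covariate and Dusp16 to -0.43 with the glycolysis and hypoxia covariate.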

How the data were processed

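Total RNA of 5 RAW-FoxQ1 and 4 RAW-vector clones was measured, each on its own Affymetrix mouse array. The authors grouped the probes by Entrez gene with a custom definition file and normalized by quantiles. RMA is named in the submitters' processing notes, with its version not given in the sources used here. Values were deposited on the log2 scale. Their sorted columns are identical, which hides any shift common to all genes. Scanner files were not used here.

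The 64 control probe sets among 16556 rows entered no test. Symbols came from a RefSeq table (GRCm38.p6) by the Entrez ID in the row name, or else from the platform's table, for 16258 of 16492 gene rows. Where 5 symbols had several rows, the row with the highest mean stood for the gene. With R 4.3.3 and limma 3.58.1 the values were fitted by lmFit and eBayes on the group alone, without a filter, with calls at an adjusted p under 0.05 (Benjamini-Hochberg) over all gene rows. For single genes the two-sided exact permutation test ran over 126 assignments of the clones. The fit was tested on simulated data. The number of arrays limits the precision.

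The alternatives were median centring, a repeat of the quantile normalization, array weights, a robust eBayes with a mean trend, the methods' one-way ANOVA, a filter at the 40 percentile of mean signal, averaged rows, a log2 fold change of at least 1, the 2 covariates and each clone left out in turn. The members, the gene lists and the covariates were chosen with earlier results of these data known. Named in the text are every member, Foxq1, and of each list described the called genes with the largest changes, at most 3 in each direction (1 of them is not reported here); Csf1r, Dusp7 as the relative of Dusp6 and the clone-by-clone values were singled out after the values were seen. Promoter sequences are from RefSeq, with all 8 members matched. Protein sequences were not used here.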

Additional observations from a re-analysis of the deposited data

Results flagged for a closer look

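RAW-FoxQ1 clone 7.3 stood apart from the other 4 RAW-FoxQ1 clones for 2 genes, by Dixon's test on the gap to the nearest clone relative to the range of the group. Its log2 value of Dusp6 was 9.39, where the other 4 RAW-FoxQ1 clones had 8.65 to 8.77. Its log2 value of Dusp1 was 10.90, where those 4 had 9.78 to 10.06. In all 16 groups were tested, 2 for each of 8 genes, and chance flags about 1 in 20 groups. Without this clone Dusp6 and Dusp1 were still called higher in RAW-FoxQ1 clones, by 1.45 (adjusted p = 0.00251 from limma) and 0.75 (adjusted p = 0.00156 from limma) on the log2 scale. Why this clone differs was not tested.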

How the results depend on the processing

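Of 3 members called higher, 1 (Dusp6) passed a fold limit of 1 on the log2 scale, and 0 were called with the poly-A covariate and 0 with the glycolysis and hypoxia covariate by limma (1 each, Dusp6, at an unadjusted p under 0.05). Of 2 called lower, 1 was called with the filter on dim genes and 1 with the poly-A covariate, and 0 with the glycolysis and hypoxia covariate (1, Dusp16, at an unadjusted p under 0.05) or at the fold limit. Leaving out 1 clone gave 1 to 2 called lower. Spry1 was lost in 7 of 9 such fits, and without RAW-FoxQ1 clone 7.1 or RAW-vector clone 6 Spry2 was gained as it was lost. With trend and robust settings, array weights or median centring 3 were called lower, since Spry2 passed (adjusted p = 0.0344, 0.0270 and 0.0489 from limma). Of all genes, 6748 were called, 683 at the fold limit, 2735 with the poly-A covariate and 2503 with the glycolysis and hypoxia covariate. Signs turned with the glycolysis and hypoxia covariate for Dusp2 (0.098) and Spry2 (0.011), neither of which was called. Dusp6 and Dusp1 kept their direction in 19 of 19 settings and lost the call only with the covariates or, for Dusp1, at the fold limit. Spry2 was dropped by the filter on dim genes. Spry1, Spry2 and Spred2 lie below the array median, where signal over background limits what can be seen. No paired analysis was possible because the groups share no clone numbers.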

Other observations

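Genes listed for the parallel p38 and JNK pathways, which Dusp1 and Dusp16 oppose, went in both directions. The list is not limited to those pathways. It also holds Map3k8, whose kinase activates the ERK pathway too, and Map2k5 and Mapk7 of the ERK5 pathway. Of 27 measured genes 9 were called lower, 5 higher and 13 neither in RAW-FoxQ1 clones, with a median log2 fold change of -0.080. The share called was 51.9%, against 40.9% of all genes, made up of 21.4% lower and 19.6% higher. Of the genes left after the filter on dim genes 61.1% were called, above the share of this list. The kinase genes Map3k1, with a log2 fold change of -1.10, Map3k8 at -0.39 and the JNK scaffold gene Mapk8ip3 at -0.61 led the decreases. Those of Map3k7 at 0.74, Map2k4 at 0.47 and Map2k3 at 0.47 led the increases. Map3k7 encodes TAK1, a kinase that relays signals from Toll-like receptors, and Map2k4 and Map2k3 encode kinases that activate JNK and p38.

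A list of 22 measured genes held receptors that feed the ERK pathway and the ligand genes Csf1 and Csf2. Of these genes 1 was called higher and 2 lower, 13.6% against 40.9% of all genes. The list is dim, with a median at the 31.3 percentile of signal in RAW-FoxQ1 clones and the 31.6 percentile in RAW-vector clones, and signal over background limits what its share of calls can show. Csf2ra, a chain of the GM-CSF receptor, had log2 values of 9.18 to 9.68 in RAW-FoxQ1 clones and 8.39 to 9.05 in RAW-vector clones, a log2 fold change of 0.74 (adjusted p = 0.00339 from limma). Csf1r, the M-CSF receptor, averaged 13.25 in RAW-FoxQ1 clones and 13.24 in RAW-vector clones, with a log2 fold change of 0.0085 and a 95% confidence interval of -0.20 to 0.22.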
